A study of Mus musculus with 5 samples.

Results

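The epithelial genes described here are 35 genes of cell junctions, keratins and epithelial identity that secretory and ciliated cells of the oviduct share. They form a list of names and were read from the expression table by symbol. All 35 were found among its 23857 genes. Their RNA was measured by bulk sequencing of 5 libraries, each made from YFP-positive cells sorted as stroma from the oviduct (fallopian tube) of 1 young adult female mouse. The control animals, mice 2 and 3, had the genotype Pdgfra-Cre;R26Y. Mice 1, 2 and 3 of the other group, labelled as the conditional knockout, carried Pdgfra-Cre, R26Y and in addition Esr1(fl/fl), floxed alleles of the gene of estrogen receptor alpha. The driver and the YFP reporter were thus common to both groups. The recombinase is driven by regulatory sequence of Pdgfra, a receptor gene typical of mesenchyme, and where it acts it deletes floxed sequence and switches on YFP in the cell and its descendants. The stage of the estrous cycle is not given in the sources used here.

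Epithelial cells form sheets that are sealed by tight junctions, held together by adherens junctions and desmosomes, and braced by keratin filaments. Their identity is kept by transcription factors such as the Grainyhead-like and epithelial ETS proteins and by splicing regulators of the Esrp family, whereas factors of the Snail, Zeb and Twist families repress epithelial genes in mesenchymal cells. In the oviduct the lining epithelium holds secretory and ciliated cells and lies on a stroma of fibroblasts. Simple keratins are also made by the mesothelium that covers the organ.

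Values are TPM, given for control mice 2 and 3 in that order and then for mice 1, 2 and 3 with Esr1(fl/fl), and errors of log2 fold changes after ± are standard errors. TPM are scaled to gene length and to a total of 1000000 in each library, so that levels can be compared between genes. Relative to control mouse 2, the estimated sequencing depth was 66.5% in control mouse 3 and 48.5% to 83.1% in the libraries labelled knockout. Depth was lowest in knockout mouse 1. Genes at 1 TPM or more numbered 19061 and 19432 in control mice, against 17148, 18190 and 15841 in the Esr1(fl/fl) libraries, fewest in mouse 3. Esr1 itself had 83.3 and 77.6 TPM in control mice, against 28.9, 85.0 and 170 in mice 1, 2 and 3 labelled knockout. Its level was thus below both controls only in knockout mouse 1, against the label of mice 2 and 3, and the values per gene do not show whether the floxed sequence was missing from the transcripts. Directions are therefore given for the libraries labelled knockout. Stromal markers were abundant in all 5 libraries, with Dcn, a fibroblast proteoglycan, at 6764 to 10110 TPM. Ovgp1, the oviductal glycoprotein of secretory cells, was at 1522 TPM or more in every library of both groups, and the source of this RNA was not tested.

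All 35 epithelial genes were detected in every library and passed the filter for testing (1 TPM or more in 2 libraries or more). The lowest value was 1.99 TPM, for Dsc2 in knockout mouse 1. Together the 35 genes took 1354 and 1489 TPM in control mice, against 1124, 2469 and 3222 in the Esr1(fl/fl) libraries. The summed level was therefore lowest in knockout mouse 1 and above both controls in knockout mice 2 and 3. In bulk samples, fewer cells of a type and less RNA per cell cannot be told apart.

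Of the 35 genes, 0 had an adjusted p under 0.05 in the comparison of the 3 libraries labelled knockout with the 2 controls (limma on log2(TPM + 1)), where 0.0104% of the 19292 tested genes were called higher and 0.0156% lower. At an unadjusted p under 0.05 there was 1 higher gene, Cldn1, and 0 lower, against 3.70% and 9.87% of all tested genes. The log2 fold changes ran from -0.23 to 1.16 with a median of 0.44, beside a median of -0.022 over all tested genes. In 29 of the 35 the fold change was above 0, as it was in 47.8% of all tested genes. When knockout mouse 1 was left out, 16 of the 35 were called higher and 0 lower, where 5.35% and 2.63% of 19106 tested genes were called, and the median was 0.86 beside 0.028 over all tested genes. The 16 were Epcam, Cdh1, Jup, Cldn7, Llgl2, Dsg2, Krt8, Krt18, Elf3, Ehf, Esrp1, Prss8, Spint1, Spint2, Rab25 and Ap1m2. This fit sets mice 2 and 3 labelled knockout, with Esr1 at 85.0 and 170 TPM, against controls at 83.3 and 77.6 TPM. It leaves out the only library with Esr1 below both controls. That library was also the lowest of the 5 for 26 of the 35 genes, so that leaving it out raised their fold changes. Values of this fit printed below for single genes show how far that library moves them and are not a second test. When knockout mouse 2 or knockout mouse 3 was left out instead, 0 of the 35 were called.

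The order of the 3 libraries labelled knockout was alike for most of these genes. In knockout mouse 1, 26 of the 35 lay below both controls, 8 between them and 1 above, where 53.9% of all tested genes lay below and 20.8% above. In knockout mouse 2, 31 lay above both controls and 0 below, where 47.5% of all tested genes lay above and 32.6% below. In knockout mouse 3, 30 lay above and 2 below, where 40.9% and 44.3% of all tested genes did. Both mice 2 and 3 were above both controls for 29 of the 35, compared with 34.5% of all tested genes. Knockout mouse 3 was the highest of the 5 libraries for 27 genes (24.9% of all tested genes) and knockout mouse 1 the lowest for 26 (31.0%). Only Cldn1 was above both controls in all 3 libraries, where 11.9% of all tested genes were, and 0 of the 35 were below both controls in all 3, against 21.9%. The single gene became 29 genes without knockout mouse 1, 7 without control mouse 3 and 2 without control mouse 2, and Cldn1 overlapped the controls after quantile normalization.

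**Figure D1:**
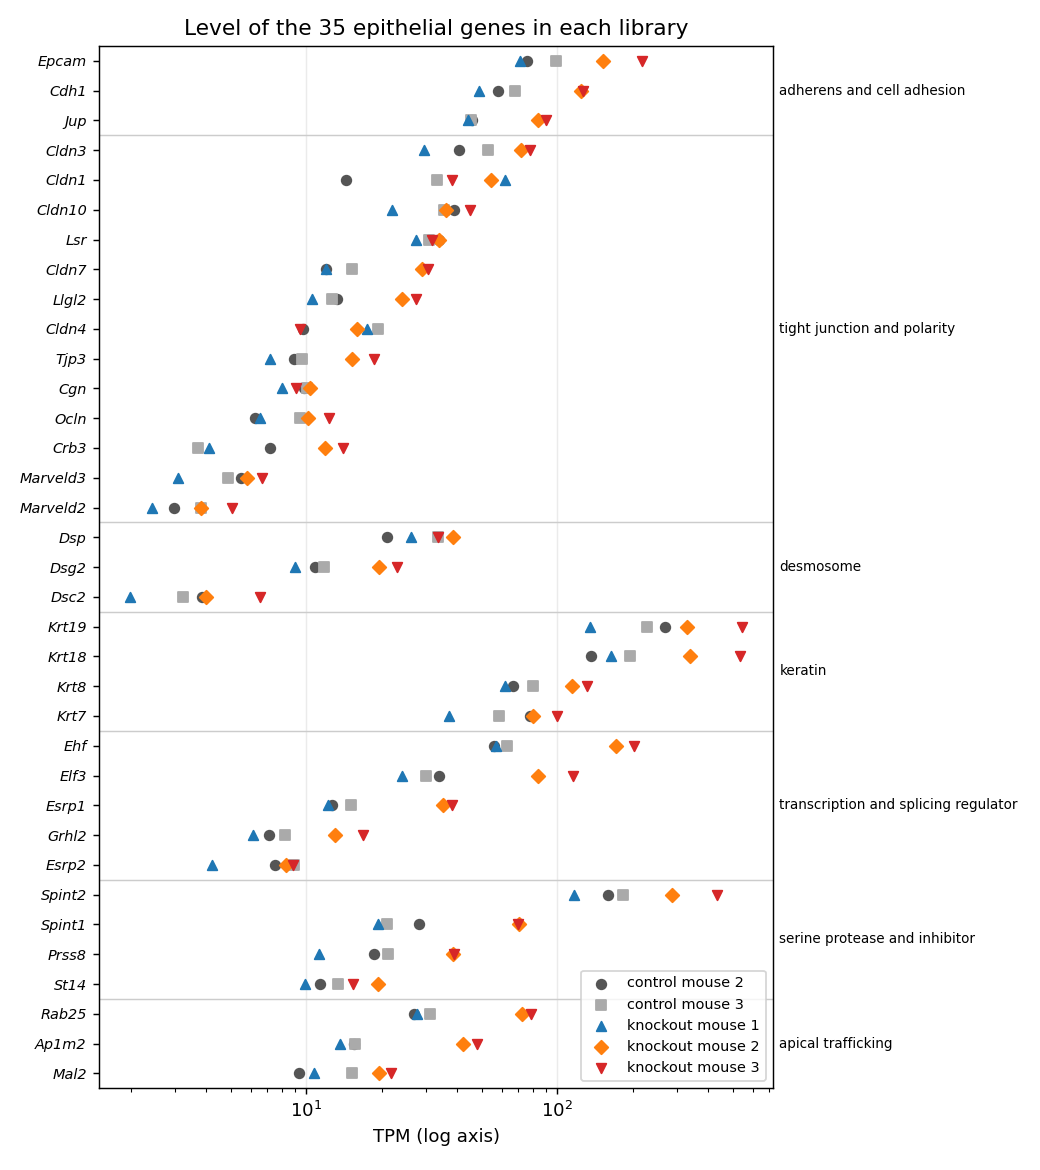
TPM of each of the 35 epithelial genes on a log axis, 1 symbol per library, ordered by role and by mean level. The symbols of knockout mice 2 and 3 lie to the right of both controls for 29 genes, and that of knockout mouse 1 to the left of both for 26.

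Promoters are described for the genes that could be matched, and whether their sequence bears on the order of libraries was not tested. RefSeq start sites of GRCm38.p6, the assembly also called mm10, were matched for 22 of the 35 genes, with 28 promoters, and the 250 bases before each start were searched on both strands. The missing genes were Cdh1, Krt19, Grhl2, Ehf, Esrp1, Esrp2, Prss8, St14, Marveld3, Llgl2, Mal2, Dsg2 and Dsc2. The E-box CACCTG, a sequence bound by Snail and Zeb repressors, was present in 16 of the 28 promoters (57.1%), and in 17.2% of all 32851 promoters of that length. Both promoters of Crb3, which overlap and hold the same 3 E-boxes, are counted among the 16. Per gene, 14 of 22 had an E-box, compared with 19.4% of 27025 genes. The Grainyhead-like core AACNGGTT, where N is any base, was present in 2 of the 28, those of Rab25 and Cgn (7.14%, compared with 1.79% of all promoters). The palindromic estrogen response element was in 0 of the 28 and in 0.064% of all promoters. These matches are letters in a window, not measured binding.

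The promoters printed here, 5′ to 3′ on the gene's strand, are those of Epcam, Rab25, Ap1m2 and Spint2, which hold 2 to 4 E-boxes each and whose genes were high in knockout mice 2 and 3, and Cldn1, whose promoter holds no match to the 3 motifs and which had another order of libraries. Capitals mark E-boxes on either strand and, in Rab25, also the Grainyhead-like core, which starts 102 bases before the start site and does not overlap the E-boxes at 64 and 53 bases. The E-boxes of Epcam begin 187 and 19 bases before its start, those of Ap1m2 81, 51, 21 and 9 bases, and those of Spint2 74, 55 and 9 bases. The printed promoters were chosen after the values had been seen, and other genes differ from them. Spint1, Jup and Cldn3, with 0 E-boxes in their promoters, were also above both controls in mice 2 and 3. Cldn10, Dsp and Cgn, also with 0, were not. Neither were Lsr, with 4 E-boxes, and Cldn4, with 1.
Epcam, chr17:87635729-87635978, plus strand: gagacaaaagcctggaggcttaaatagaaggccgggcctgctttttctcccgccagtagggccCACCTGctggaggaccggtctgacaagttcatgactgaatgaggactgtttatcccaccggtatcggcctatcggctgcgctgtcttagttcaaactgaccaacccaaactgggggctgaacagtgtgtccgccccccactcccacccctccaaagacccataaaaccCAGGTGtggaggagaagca
Rab25, chr3:88548280-88548529, minus strand: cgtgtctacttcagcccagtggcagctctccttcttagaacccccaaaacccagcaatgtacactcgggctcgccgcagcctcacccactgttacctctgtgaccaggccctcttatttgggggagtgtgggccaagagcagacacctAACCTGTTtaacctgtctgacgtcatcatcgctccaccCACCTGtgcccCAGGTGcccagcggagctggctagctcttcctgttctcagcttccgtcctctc
Ap1m2, chr9:21312334-21312583, minus strand: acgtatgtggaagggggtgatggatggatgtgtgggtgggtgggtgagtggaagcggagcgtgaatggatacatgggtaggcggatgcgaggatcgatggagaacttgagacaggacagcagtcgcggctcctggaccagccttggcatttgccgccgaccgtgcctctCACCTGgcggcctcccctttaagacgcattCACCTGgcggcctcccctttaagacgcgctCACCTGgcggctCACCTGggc
Spint2, chr7:29281978-29282227, minus strand: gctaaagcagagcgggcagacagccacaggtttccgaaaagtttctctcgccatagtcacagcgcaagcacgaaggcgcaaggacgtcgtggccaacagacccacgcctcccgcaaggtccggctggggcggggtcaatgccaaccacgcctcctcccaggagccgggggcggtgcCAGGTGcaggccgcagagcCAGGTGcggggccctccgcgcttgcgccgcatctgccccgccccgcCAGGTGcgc
Cldn1, chr16:26371840-26372089, minus strand: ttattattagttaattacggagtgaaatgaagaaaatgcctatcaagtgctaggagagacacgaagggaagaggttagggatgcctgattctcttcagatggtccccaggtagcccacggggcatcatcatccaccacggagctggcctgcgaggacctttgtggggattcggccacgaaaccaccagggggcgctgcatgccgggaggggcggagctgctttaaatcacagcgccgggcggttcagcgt

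Epcam, a membrane glycoprotein of epithelial cells on chromosome 17 (GENCODE M21, GRCm38, 87635979 to 87651129), had 75.7 and 99.3 TPM in control mice, against 70.8, 152 and 218 in the Esr1(fl/fl) libraries. Mouse 1 lay just below both controls and mice 2 and 3 above them. The log2 fold change was 0.61 ± 0.44 (limma, adjusted p 0.538), and without knockout mouse 1 it was 1.06 ± 0.21 (adjusted p 0.0412). Cdh1, which encodes E-cadherin, the adhesion molecule of adherens junctions (chromosome 8, 106603351 to 106670246), had 58.3 and 67.7 TPM in control mice, against 48.9, 124 and 127 in the Esr1(fl/fl) libraries. Its log2 fold change, 0.54 ± 0.41, did not pass (limma, adjusted p 0.556). Without knockout mouse 1 it was 0.99 ± 0.12 (limma, adjusted p 0.0173). It was 0.32 without knockout mouse 2 and 0.31 without knockout mouse 3 (limma, adjusted p 0.812 and 0.883). Jup, or plakoglobin, links cadherins to the cytoskeleton in adherens junctions and desmosomes. It differed little between the controls, at 46.0 and 45.3 TPM, and had 44.3, 83.5 and 90.4 in the Esr1(fl/fl) libraries (log2 fold change 0.60 ± 0.31, limma adjusted p 0.429, and 0.91 with adjusted p 0.0174 without knockout mouse 1). For all 3 adhesion genes, mouse 1 was thus the lowest of the libraries and mice 2 and 3 overlapped neither control.

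Krt19 and Krt18 had the highest mean levels of the 35 genes. Krt18 and Krt19 are type I keratins, Krt7 and Krt8 type II, and filaments are built from pairs of the 2 types. Krt19 (chromosome 11, 100140810 to 100148665) had 268 and 228 TPM in control mice, against 135, 330 and 545 in the Esr1(fl/fl) libraries, so that the groups overlapped from far below to far above the controls. Its log2 fold change was 0.23 ± 0.53 (limma, adjusted p 0.849), 0.78 (adjusted p 0.105) without knockout mouse 1 and -0.23 without knockout mouse 3. Krt18 had 136 and 195 TPM in control mice, against 164, 339 and 537 in the Esr1(fl/fl) libraries, with mouse 1 between the controls. The log2 fold change was 0.92 ± 0.47 (limma adjusted p 0.422), and 1.38 with adjusted p 0.0370 without knockout mouse 1.

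Krt8, which lies beside Krt18 on chromosome 15 (101996698 to 102004482 and 102028180 to 102032027), had 66.7 and 80.2 TPM in control mice, against 62.0, 115 and 132 in the Esr1(fl/fl) libraries. Its log2 fold change was 0.42 ± 0.32 (limma adjusted p 0.559), and 0.74 with adjusted p 0.0373 without knockout mouse 1. Krt7 had 77.7 and 58.6 TPM in control mice, against 37.0, 79.8 and 99.8 in the Esr1(fl/fl) libraries. For Krt7 the distance of mouse 2 to the higher control was small, and the log2 fold change was -0.018 ± 0.40 (limma adjusted p 0.985), with 0.40 and adjusted p 0.209 without knockout mouse 1. The type I keratins summed to 404 and 422 TPM in control mice, against 299, 669 and 1082 in the Esr1(fl/fl) libraries, the type II keratins to 144 and 139 TPM and to 99.1, 195 and 232 TPM. Their quotient was 2.80 and 3.04 in the controls and 3.02, 3.44 and 4.67 in knockout mice 1, 2 and 3. The quotient, computed after the values were seen, was highest in knockout mouse 3, and in knockout mouse 1 it lay between the controls.

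**Figure D2:**
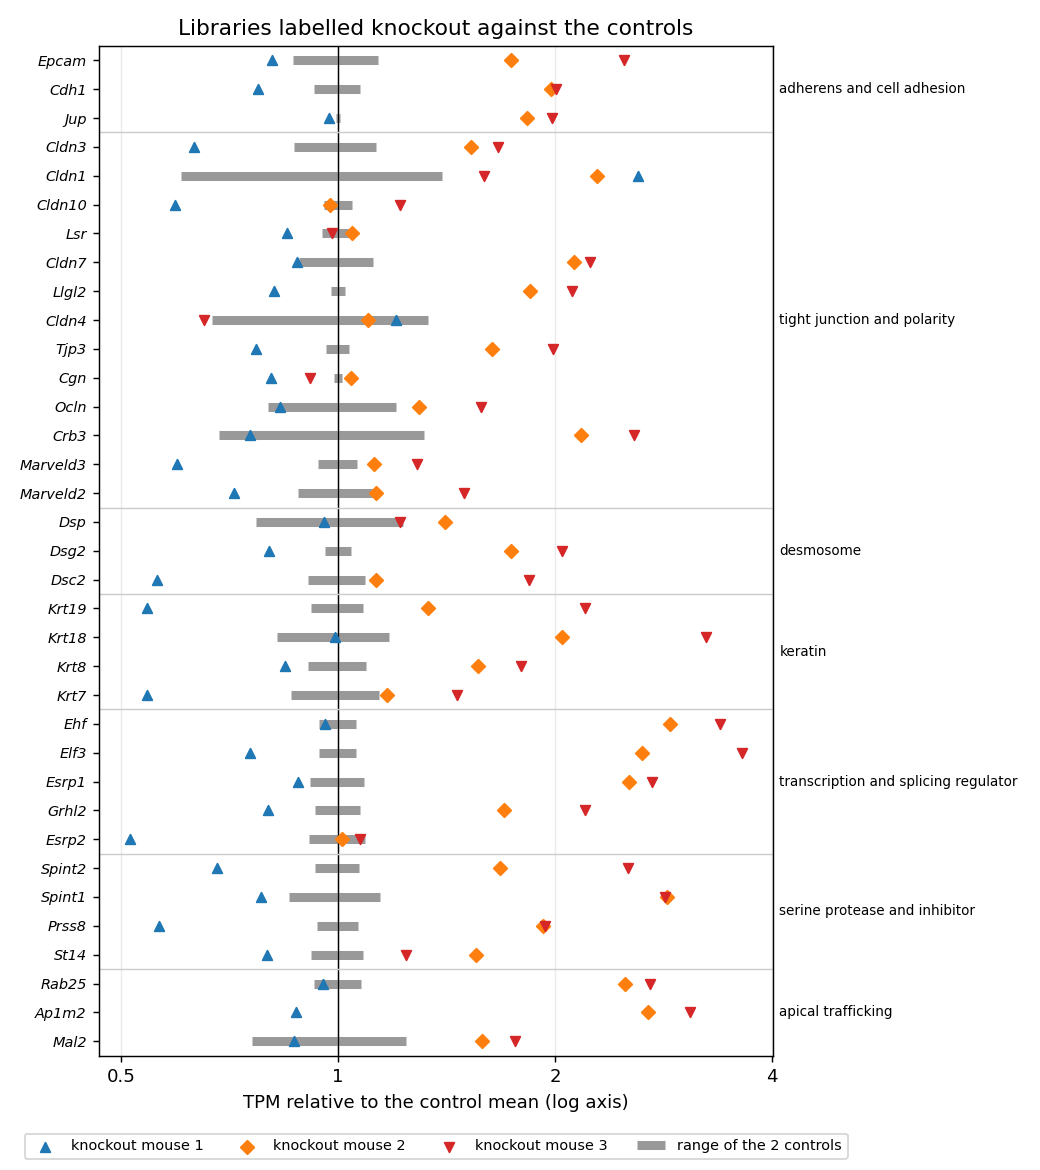
TPM of each epithelial gene in the 3 libraries labelled knockout, divided by the mean of the controls, on a log axis. Grey bars span the 2 controls. In knockout mouse 2 the values ran from 0.976 (Cldn10) to 2.89 (Ehf), in mouse 3 from 0.652 (Cldn4) to 3.64 (Elf3), and in mouse 1 from 0.514 (Esrp2) to 2.61 (Cldn1).

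The regulators of epithelial identity included the genes with the highest values relative to controls. Ehf, an ETS factor of epithelia, had 56.0 and 63.0 TPM in control mice, against 57.0, 172 and 201 in the Esr1(fl/fl) libraries. Mouse 1 thus lay between the controls, while mice 2 and 3 stood at 2.89 and 3.38 times the control mean. Its log2 fold change, 1.07 ± 0.51, did not pass (limma, adjusted p 0.401), and without knockout mouse 1 it was 1.63 ± 0.13 (adjusted p 0.0132). Elf3, a related ETS factor, had 33.7 and 30.0 TPM in control mice, against 24.0, 84.0 and 116 in the Esr1(fl/fl) libraries (log2 fold change 0.94 ± 0.60, limma adjusted p 0.4997). Without knockout mouse 1 the value was 1.60 (adjusted p 0.0140). Grhl2, a Grainyhead-like factor that activates junction genes, was much lower in level, with 7.13 and 8.23 TPM in control mice, against 6.13, 13.05 and 16.9 in the Esr1(fl/fl) libraries. It had the same order of libraries and did not pass without knockout mouse 1 either (limma, adjusted p 0.0567).

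Esrp1 and Esrp2 encode proteins that direct epithelial splicing. Esrp1 had 12.7 and 15.1 TPM in control mice, against 12.2, 35.2 and 38.0 in the Esr1(fl/fl) libraries, well above both controls in mice 2 and 3. Esrp2 had 7.501 and 8.95 TPM in control mice, against 4.23, 8.33 and 8.84 in the Esr1(fl/fl) libraries, where mice 2 and 3 lay within the range of the controls. The quotient of Esrp1 to Esrp2, which does not depend on library scaling, was 1.70 and 1.69 in the controls and 2.89, 4.22 and 4.29 in knockout mice 1, 2 and 3. It was above both controls in all 3, including mouse 1. This pair was picked after its values were seen, so no test is given.

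Among the claudins, which form the strands of tight junctions, the order of libraries differed from gene to gene. Cldn3 had 40.8 and 53.0 TPM in control mice, against 29.6, 71.7 and 78.0 in the Esr1(fl/fl) libraries (log2 fold change 0.24 ± 0.41, limma adjusted p 0.795, and 0.67 with adjusted p 0.0561 without knockout mouse 1). Without knockout mouse 3 the fold change was -0.011. Cldn7 had 12.0 and 15.2 TPM in control mice, against 12.0, 28.9 and 30.4 in the Esr1(fl/fl) libraries. Both genes thus followed Epcam in mice 2 and 3. Mouse 1 was the lowest library for Cldn3, while for Cldn7 it was about level with control mouse 2 (11.97 and 12.02 TPM).

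Cldn1 had another pattern. It had 14.4 and 33.2 TPM in control mice, against 62.1, 54.4 and 38.0 in the Esr1(fl/fl) libraries, with the highest level in mouse 1. The log2 fold change of 1.16 ± 0.37 (limma adjusted p 0.279) was the largest of the 35 genes, although the controls differed 2.30-fold, and it was 1.02 (adjusted p 0.147) without knockout mouse 1, 1.74 without control mouse 3 and 0.59 without control mouse 2. Cldn4 had 9.70 and 19.3 TPM in control mice, against 17.5, 15.96 and 9.47 in the Esr1(fl/fl) libraries. Here mouse 3 was the lowest library, below both controls, and Cldn4 lies close to Cldn3 on chromosome 5 (134945119 to 134946934 and 134986214 to 134987472). Cldn10 had 38.6 and 35.3 TPM in control mice, against 22.0, 36.1 and 45.0 in the Esr1(fl/fl) libraries. Its log2 fold change was -0.16 ± 0.30 (limma adjusted p 0.809), and 0.12 with adjusted p 0.616 without knockout mouse 1.

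The other tight junction genes encode membrane proteins and the plaque beneath them. Ocln, occludin, had 6.26 and 9.42 TPM in control mice, against 6.52, 10.2 and 12.4 in the Esr1(fl/fl) libraries. Marveld2, tricellulin of the corners where 3 cells meet, had 2.98 and 3.80 TPM, against 2.43, 3.83 and 5.06 in the same order. Marveld3, of the same family, had 5.49 and 4.86 TPM, against 3.09, 5.80 and 6.67. For these 3 genes mouse 3 was the highest library, and mouse 2 exceeded the higher control by little. Lsr, which recruits tricellulin, was nearly level, with 33.9 and 30.7 TPM in control mice, against 27.4, 33.8 and 31.7 in the Esr1(fl/fl) libraries (log2 fold change -0.062 ± 0.17, limma adjusted p 0.877). That value was 0.020 (adjusted p 0.933) without knockout mouse 1 and 0.0063 without control mouse 2, so its direction rested on single libraries. Tjp3, a scaffold of the plaque, had 8.98 and 9.67 TPM in control mice, against 7.17, 15.2 and 18.5 in the Esr1(fl/fl) libraries. Cgn, cingulin, another plaque protein, had 9.81 and 10.1 TPM, against 8.03, 10.4 and 9.08. The 2 plaque genes therefore differed in mouse 3, where Tjp3 was at 1.99 times and Cgn at 0.913 times the control mean.

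Polarity genes set the apical and basolateral sides of the cell. Crb3, of the apical Crumbs complex, had 7.16 and 3.72 TPM in control mice, against 4.10, 11.8 and 14.0 in the Esr1(fl/fl) libraries. Llgl2, on the basolateral side, had 13.3 and 12.7 TPM, against 10.6, 24.0 and 27.4. Mice 2 and 3 lay above both controls for both genes. About 32.3 reads lay behind Crb3 in knockout mouse 1, the smallest number for any of the 35 genes in any library. The next smallest was about 40.2 reads, for Crb3 in control mouse 3, so its values in these libraries are the least precise.

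Desmosomes anchor keratin filaments at the membrane. Dsp, desmoplakin, had 21.1 and 33.6 TPM in control mice, against 26.1, 38.4 and 33.3 in the Esr1(fl/fl) libraries, of which only mouse 2 was above both controls. Of the desmosomal cadherins, Dsg2 had 10.8 and 11.7 TPM, against 9.05, 19.6 and 23.1, and Dsc2 had 3.86 and 3.22 TPM, against 1.99, 3.99 and 6.53. Both cadherins were lowest in mouse 1 and highest in mouse 3.

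Membrane-bound serine proteases and their inhibitors act together on the epithelial surface. Spint2, a Kunitz-type inhibitor, had 159 and 183 TPM in control mice, against 116, 287 and 432 in the Esr1(fl/fl) libraries (log2 fold change 0.51 ± 0.50, limma adjusted p 0.636, and 1.04 with adjusted p 0.0412 without knockout mouse 1). The related inhibitor Spint1 had 28.1 and 21.02 TPM, against 19.2, 70.3 and 69.7 (log2 fold change 0.88 ± 0.55, limma adjusted p 0.489, and 1.49 with adjusted p 0.0140 without knockout mouse 1). In mouse 2 Spint1 stood at 2.86 times the control mean and Spint2 at 1.68 times. The proteases were lower in level. Prss8, prostasin, had 18.6 and 21.3 TPM in control mice, against 11.3, 38.4 and 38.6 in the Esr1(fl/fl) libraries, and St14, matriptase, had 11.4 and 13.4 TPM, against 9.87, 19.3 and 15.4. All 4 genes were lowest in mouse 1, and above both controls in mice 2 and 3.

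Genes of polarized trafficking sort cargo to the apical or basolateral membrane. Rab25, a small GTPase of recycling endosomes, had 26.9 and 31.2 TPM in control mice, against 27.6, 72.7 and 78.6 in the Esr1(fl/fl) libraries (log2 fold change 0.88 ± 0.43, limma adjusted p 0.415). Without knockout mouse 1 the value was 1.35 ± 0.13 (adjusted p 0.0140). Ap1m2, the epithelial subunit of a clathrin adaptor, had 15.6 TPM in either control, against 13.6, 41.9 and 47.9 in the Esr1(fl/fl) libraries. Mal2, a protein of transcytosis, had 9.34 and 15.3 TPM, against 10.7, 19.5 and 21.7. Mice 2 and 3 were above both controls for all 3, at 2.50 to 3.08 times the control mean for Rab25 and Ap1m2 and at 1.58 and 1.76 times for Mal2.

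**Figure D3:**
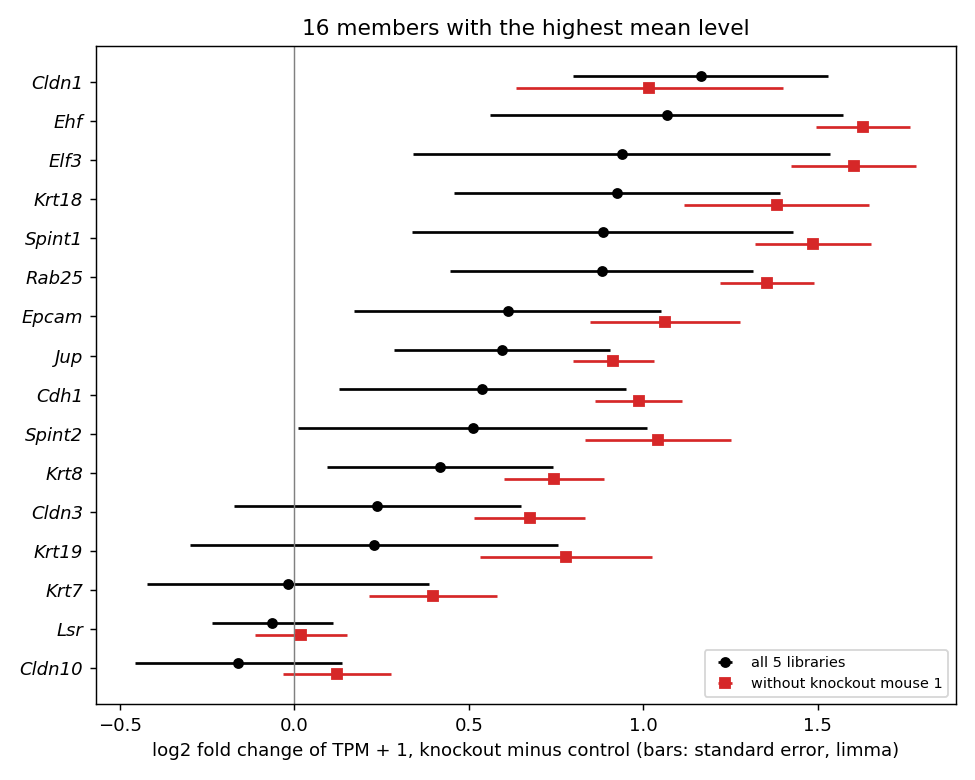
Log2 fold change of TPM + 1, libraries labelled knockout minus controls, with its standard error from limma, for the 16 epithelial genes with the highest mean level. Black circles are the fit to all 5 libraries, where 0 of the 16 passed the threshold, and red squares the fit without knockout mouse 1, where 10 passed.

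The spread within each group can be read from the ratios. Control mouse 3 was at 0.520 (Crb3) to 2.30 (Cldn1) times control mouse 2, with a median of 1.15 over the 35 genes. Relative to the control mean, the median over the 35 genes was 0.803 in knockout mouse 1, 1.68 in mouse 2 and 1.98 in mouse 3. Over all tested genes it was 0.886, 1.07 and 0.973, so that the median in mouse 1 lay near that of all genes. By role, the regulators had medians of 2.53 and 2.73 in mice 2 and 3, the trafficking genes 2.50 and 2.71, the adhesion genes 1.83 and 2.01, the proteases and inhibitors 1.80 and 2.23, the keratins 1.45 and 2.00, the desmosome genes 1.41 and 1.84, and the tight junction and polarity genes 1.30 and 1.58. At 2 times the control mean or more were 1 gene in mouse 1, 10 genes in mouse 2 and 16 in mouse 3. The share of all tested genes past this cut was not counted, so these numbers only describe the 35.

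A further list of 36 genes of junctions, keratins and epithelial regulation was examined. Of these, 0 were called in either direction (limma), 17 had a fold change above 0 and 19 below, and the median was -0.034, beside -0.022 over all tested genes. At an unadjusted p under 0.05 (limma) 1 was higher, Pkp2, and 1 lower, Cdh3, where 3.70% and 9.87% of all tested genes were. Both knockout mice 2 and 3 were above both controls for 17 of the 36 (34.5% of all tested genes), and knockout mouse 1 was below both for 28 (53.9% of all tested genes). The most abundant were F11r, a tight junction adhesion molecule, Tjp1, a scaffold of tight junctions, and Klf5, a transcription factor. F11r had 95.6 and 78.1 TPM in control mice, against 75.1, 144 and 137 in the Esr1(fl/fl) libraries. Tjp1 had 62.7 and 56.6 TPM, against 66.8, 86.5 and 91.0, and Klf5 had 48.8 and 70.4 TPM, against 36.2, 81.8 and 107. All 3 were above both controls in mice 2 and 3. For 15 of the 36, however, mouse 3 was below both controls, as it was for 44.3% of all tested genes. In all 3 libraries labelled knockout, 3 of the 36 were above both controls and 5 below, against 11.9% and 21.9% of all tested genes. Without knockout mouse 1, Cldn2, F11r and Tjp1 were called higher and 0 lower, where 5.35% and 2.63% of all tested genes were, with a median of 0.19 over the list.

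Of the 6 repressors of epithelial genes, Snai1, Snai2, Zeb1, Zeb2, Twist1 and Twist2, 0 were called with or without knockout mouse 1 (limma). In all 5 libraries 2, Snai2 and Twist2, had an unadjusted p under 0.05 (limma), both lower, where 9.87% of all tested genes were lower at that threshold. The median log2 fold change was -0.35 and 5 of the 6 were below 0. Zeb2 had 80.7 and 74.1 TPM in control mice, against 65.0, 61.2 and 50.9 in the Esr1(fl/fl) libraries, below both controls in all 3. Zeb1 had 71.9 and 59.4 TPM, against 64.5, 65.9 and 45.7, which overlapped the controls. Snai2 had 84.6 and 38.3 TPM, against 23.6, 27.1 and 24.3, and the controls differed from each other more than the lower control did from the libraries labelled knockout.

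Markers of the cells that could carry these genes were set beside them, and their part in the differences was not tested. Of 6 secretory markers 0 were called (limma). Without knockout mouse 1, 3 were called higher, Ovgp1, Pax8 and Sox17, where 5.35% of all tested genes were. Ovgp1 had 2273 and 2463 TPM in control mice, against 1522, 10655 and 11258 in the Esr1(fl/fl) libraries, which made up most of the list's sum of 2334 to 2539 TPM in controls and 1587 to 11452 TPM in the libraries labelled knockout. Pax8, the transcription factor of secretory cells, had 36.0 and 44.8 TPM, against 38.5, 105 and 144. Sox17, also a transcription factor of these cells, had 15.6 and 20.8 TPM, against 19.2, 37.4 and 37.8. Of the 6 markers, 4 were above both controls in mice 2 and 3, as 34.5% of all tested genes were. The other markers, Msx2 and Wnt7a, were low in every library and below both controls in mouse 3.

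Of 10 ciliated markers, 0 were called (limma) and 1, Dynlrb2, was called higher without knockout mouse 1, where 5.35% of all tested genes were. Their sum was 482 and 571 TPM in control mice, against 498, 838 and 778 in the Esr1(fl/fl) libraries, and 8 of 10 were above both controls in mice 2 and 3, as 34.5% of all tested genes were. Dynlrb2, a dynein light chain, had 75.0 and 104 TPM in control mice, against 126, 156 and 204 in the Esr1(fl/fl) libraries. Tppp3 had 184 and 170 TPM, against 134, 185 and 168. Cfap126 had 72.4 and 106 TPM, against 72.3, 191 and 141. Foxj1, the master regulator of motile cilia, shown after its values were seen, was highest in mouse 2, at 149 TPM, compared with 63.1 and 78.8 TPM in the controls and 67.9 and 100.3 TPM in knockout mice 1 and 3. Of the 10 ciliated markers, 4 were highest in mouse 3, as 24.9% of all tested genes were.

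Of the mesothelial markers, 5 of 6 were lower in each Esr1(fl/fl) library than in either control, where 21.9% of all tested genes were. Of 6 listed markers 0 were called (limma). Without knockout mouse 1, where 2.63% of all tested genes were called lower and 5.35% higher, 5 markers were called lower and 1, Wt1, higher. Their sum was 726 and 618 TPM in control mice, against 355, 490 and 515 in the Esr1(fl/fl) libraries. Msln, mesothelin, had 123 and 99.6 TPM in control mice, against 30.4, 45.2 and 44.4 in the Esr1(fl/fl) libraries, and Upk3b had 223 and 178 TPM, against 81.1, 113 and 119. The lowest levels of both were in mouse 1. Wt1, a transcription factor, had 141 and 146 TPM, against 175, 218 and 223.

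The 9 stromal markers summed to 23727 and 19175 TPM in control mice, against 16283, 12764 and 14739 in the Esr1(fl/fl) libraries, with 0 called in all 5 libraries (limma) and 1, Lum, called lower without knockout mouse 1. Col1a1 had 3806 and 2723 TPM in control mice, against 1748, 1389 and 1884 in the Esr1(fl/fl) libraries, and Col3a1 had 2893 and 2212 TPM, against 1438, 1275 and 1886. Pdgfra had 225 and 188 TPM, against 298, 231 and 165. The level of Epcam as a percentage of that of Pdgfra was 33.6% and 53.0% in the controls and 23.8%, 65.8% and 132% in knockout mice 1, 2 and 3. It was lowest in mouse 1 and highest in mouse 3, and this measure was chosen after the values were seen. Endothelial markers summed to 235 and 259 TPM and to 183, 268 and 170 TPM, with 0 of 7 called and 1, Esam, lower without knockout mouse 1. Immune markers summed to 1955 and 2530 TPM and to 1490, 951 and 679 TPM, with 0 of 8 called and 4, Adgre1, Itgam, Lyz2 and Csf1r, lower without knockout mouse 1. No listed marker of these lists was at 0 in any library.

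**Figure D4:**
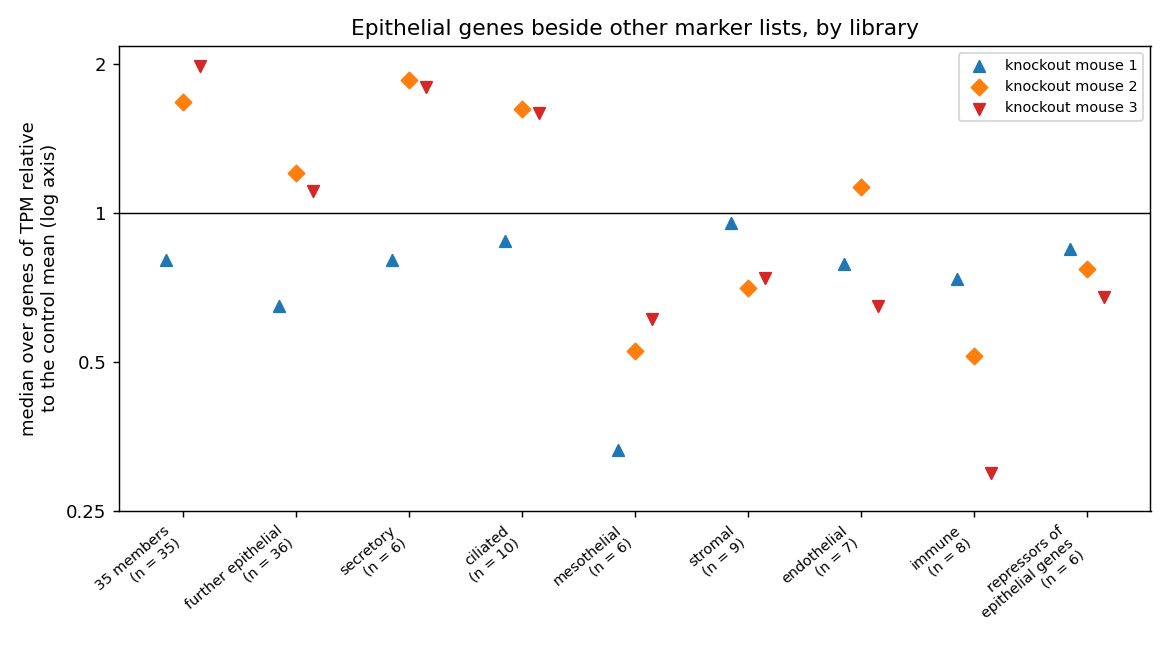
For each list, the median over its genes of TPM divided by the control mean, on a log axis, in the 3 libraries labelled knockout. The 35 epithelial genes lie at 0.803, 1.68 and 1.98 in knockout mice 1, 2 and 3, the secretory markers at 0.803, 1.86 and 1.80 and the ciliated markers at 0.876, 1.62 and 1.59. The mesothelial, stromal and immune markers and the repressors of epithelial genes lie below 1 in all 3, the stromal markers at 0.956, 0.706 and 0.739. Over all tested genes, which are not drawn, the medians were 0.886, 1.07 and 0.973.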

How the data were processed

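RNA of YFP-positive oviductal cells was sequenced in 5 libraries, 1 mouse each, from total RNA and a low-input SMARTer kit, per the labels. Groups and mouse numbers come from the labels. Each library is a mouse, and p-values measure the spread between these mice. The deposited values are TPM per gene, made by the authors with STAR, per the name of the table, on mm10, per the submitters' processing notes. The STAR version, the gene counter and the annotation are not given in the sources used here. TPM summed to 1000000 in each library. TPM is a share, so a gene that takes much of a library lowers the others, and it keeps no depth. Relative depth and approximate reads were estimated from the steps of low values and from single-exon genes of GENCODE M21, with the longest transcript as gene length, after a test on simulated data. No molecular identifiers are mentioned, so reads may repeat a molecule.

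Genes with at least 1 TPM in at least 2 libraries were fitted on log2(TPM + 1) with limma 3.58.1 in R 4.3.3 (eBayes with trend, genotype as the only term, two-sided), also tested on simulated data. P-values were adjusted by Benjamini-Hochberg over all 19292 tested genes, with a threshold of 0.05. Fold changes on this scale understate those of low genes. Fold changes are printed for Epcam, Cdh1, any of the 35 genes past the threshold and the 16 with the highest mean TPM, and each other list is shown by its 3 most abundant genes where a result turns on them. The 35 genes, the lists and the tests were chosen with earlier results of these data known. Other genes named as members of small counts were named after their values were seen. No test over a list was made. Promoters are from RefSeq, GRCm38.p6. Also tried were another pseudocount, filter, scaling, variance model, weighting or threshold, a block, and each library left out. Tables were made in Python 3.11.15 (pandas 2.3.3, numpy 2.4.6).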

Additional observations from a re-analysis of the deposited data

How the results depend on the processing

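Of the 35 epithelial genes, 0 were called higher and 0 lower in the comparison of all 5 libraries, and the counts stayed at 0 in every alternative except 2: without knockout mouse 1, 16 were called higher, and with the mouse number as a replicate block, 17. Over the fits that left out 1 library each, the count of higher genes ranged from 0 to 16. In the fits that leave out a control, the remaining control is assumed to vary like the knockout libraries. The median log2 fold change of the 35 genes (0.44) stayed above 0 in all alternatives, and ranged from 0.23 without knockout mouse 3 to 0.86 without knockout mouse 1. The number above both controls in all 3 libraries labelled knockout (1) was 0 with quantile normalization and 2 with median-of-ratios scaling, and ranged from 1 to 29 over the fits without 1 library.

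The labels do not say whether mice of the same number belong together. The correlation of same-numbered deviations from the group means was -0.060 (mouse 2) and -0.072 (mouse 3). It cannot decide this, since the deviations of 2 controls mirror each other and those of the knockout libraries also depend on mouse 1. The block rests on mice 2 and 3 alone, since mouse 1 has no partner. With it, 1165 genes were called higher and 693 lower, and Cldn10 (0.12), Lsr (0.020) and Krt7 (0.40) changed sign.

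Over all genes, 2 were called higher and 3 lower. Higher genes numbered 0 with a pseudocount of 0.1, a mean TPM of at least 5, quantile normalization or eBayes without trend (2233, 1389, 2573 and 2800 genes at an unadjusted p under 0.05), 1 with no filter, 260 with library weights and 14 at a threshold of 0.1. Lower genes numbered 0 with a pseudocount of 0.1 or a mean TPM of at least 5, 6 with median-of-ratios scaling, 5 without Rpph1 and Rn45s, 396 with library weights and 22 at a threshold of 0.1. Without 1 library each they ranged from 0 to 1022 and from 0 to 502, both highest without knockout mouse 1. The cause of these shifts was not tested.

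Among the values for 16 single genes under these alternatives, 207 had an unaltered sign and call, 21 newly passed the threshold (all with the block or without knockout mouse 1) and 12 changed sign. Besides those with the block, these were Lsr (0.011) and Krt7 (0.19) with library weights, and values within the ranges over the fits without 1 library, which were -0.011 to 0.67 for Cldn3, -0.38 to 0.12 for Cldn10, -0.13 to 0.020 for Lsr, -0.31 to 0.40 for Krt7 and -0.23 to 0.78 for Krt19. Depth limits the lowest genes, with about 32.3 to 60.2 reads behind Crb3, Marveld2, Marveld3 and Dsc2 in knockout mouse 1. Crb3 in control mouse 3 had about 40.2 reads.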
